A study of Mus musculus with 12 samples.

Results

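The comparison described here is metformin against vehicle in haematopoietic stem and progenitor cells that carry a mutant Dnmt3a allele. It uses 6 of the 12 libraries of the series, 3 from mutant cells after vehicle (RH VEH 1 to 3) and 3 from mutant cells after metformin (RH MET 1 to 3), across all genes. The 6 libraries were chosen by genotype and treatment, while leaving out RH VEH 2 in places below rests on its measured share of mitochondrial counts. Mutant cells (RH) came from Dnmt3afl-R878H/+ mice crossed with Mx1-cre mice, and the other 6 libraries came from cells labelled Dnmt3a+/+ (WT). All mice were C57BL/6, and treatment lasted 1 month in an in vivo competition experiment. Lin-ckit+ cells, which lack markers of mature blood lineages and carry the stem and progenitor receptor cKit, were sorted from fresh bone marrow and never cultured. The Mx1 promoter that drives the recombinase responds to interferon, so recombination is not restricted to blood cells. Each treatment was given to 2 animals, fewer than the 3 libraries of a group, and which animal each library came from is not stated. A p-value here thus measures the spread between libraries, part of which may be technical.

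Dnmt3a encodes a DNA methyltransferase that sets new methylation marks, and mutation at this arginine is a recurrent lesion of clonal haematopoiesis, in which one stem cell contributes an outsized share of the blood. Metformin is a biguanide that inhibits respiratory complex I, the entry point of electrons from NADH into the mitochondrial respiratory chain. Loss of ATP production in this way is known to activate the kinase AMPK, which restrains mTOR signalling. The series was made to learn how the drug affects cells of either genotype, and the comparison in mutant cells asks which transcripts accompany treatment there.

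With all libraries, no gene of 15003 tested passed an adjusted p of 0.05 (edgeR quasi-likelihood test, Benjamini-Hochberg, smallest adjusted p 0.93). At an unadjusted p under 0.05 there were 364 genes, of which 228 were lower and 136 higher under metformin, or 1.52% and 0.906% of those tested. One vehicle library stood apart. RH VEH 2 drew 40.8% of its counts from the mitochondrial chromosome, against 2.26% to 3.85% in the other 5. The mean share under metformin minus that under vehicle was −13.1 percentage points with all 6 libraries (two-sided exact permutation p = 0.3, where 0.1 is the smallest p possible). It was −0.51 points without RH VEH 2, a description only, since that library was set aside for this share. It also stood apart on the first principal component of the 6 libraries, which held 54.7% of the variance. Without it, 15416 genes were tested and 1 passed, the glycolytic gene Gapdh (0.00649% of those tested lower). Medians of the lists are therefore given with and without RH VEH 2, and levels of genes for each library. The fold changes of the 2 fits had the same sign in 11997 of 15003 genes.

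A second split ran through the libraries. RH VEH 1, RH MET 1 and RH MET 2 are found in both deposited tables and are called round 1, and RH VEH 2, RH VEH 3 and RH MET 3 are found only in the larger one and are called round 2. Columns were matched between the tables by identical counts in every gene and not by name, since the numbers in the names differ between the tables. The second principal component, with 18.3% of the variance, separated these rounds. Differences within a round are the mean of RH MET 1 and 2 minus RH VEH 1 in round 1, and RH MET 3 minus RH VEH 3 or minus RH VEH 2 in round 2. They are differences of log2 CPM (counts scaled to library size) and carry no test.

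Defining markers of the sorted cells were present in all 6 libraries. Kit, the receptor used for sorting, stood at 149, 135 and 185 CPM in the vehicle libraries and at 150, 174 and 159 under metformin. Cd34, a surface marker of progenitors, ranged from 53.3 to 141 CPM. Markers of cells that the sort should remove were low but not at 0: Cd3e of T cells ranged from 0.378 to 3.08 CPM and Ly6g of neutrophils from 2.03 to 14. Hba-a1, an alpha globin gene of red cells, ranged from 1263 to 2738 CPM. Dnmt3a stood at 39.7, 43.5 and 58.2 CPM under vehicle and at 45.3, 49.2 and 52.2 under metformin. These Dnmt3a ranges overlap, and a heterozygous point change cannot be read from the level. In bulk RNA, fewer cells of a type and less RNA per cell cannot be told apart, which holds for every cell-type gene below.

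Gapdh, which encodes glyceraldehyde-3-phosphate dehydrogenase of glycolysis, fell by 2.79 ± 0.26 on the log2 scale (SE) when RH VEH 2 was left out, at an adjusted p of 0.0017 (edgeR quasi-likelihood test, 2 vehicle against 3 metformin libraries). The gene (ENSMUSG00000057666) lies on chromosome 6 at 125161715 to 125166467 of mm10. It stood at 172, 18.3 and 68.1 CPM in RH VEH 1, 2 and 3, from 3354, 153 and 1384 counts. Under metformin it stood at 17.3, 21 and 14.1 CPM. RH VEH 1 and RH VEH 3 were thus above every metformin library, while RH VEH 2 lay among them. The 6 wild-type libraries ranged from 13.2 to 20.3 CPM, so the 2 high vehicle libraries also stood above all wild-type ones. With RH VEH 2 included the log2 fold change was −2.36 ± 0.537 and did not pass (adjusted p 0.93, edgeR), and it ran from −2.79 to −1.45 when 1 library at a time was left out, with −1.45 without RH VEH 1. With RH VEH 2 and RH MET 3 both left out Gapdh was no longer called (−2.79, edgeR adjusted p 0.0592). Gapdh has many processed pseudogenes, and how reads shared with them were counted is not given in the sources consulted.

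Of 23 tested glycolysis genes, 8 were lower and 15 higher with all libraries, with a median log2 fold change of 0.07. Without RH VEH 2, 14 were lower and 9 higher, with a median of −0.02. Slc2a3, which encodes the glucose transporter GLUT3, stood at 80.5, 72.1 and 99.3 CPM under vehicle and at 131, 117 and 102 under metformin. Adpgk, an ADP-dependent glucokinase, stood at 66.5, 99.8 and 99.8 CPM under vehicle and at 117, 131 and 121 under metformin. All 3 metformin libraries were above all 3 vehicle libraries for both genes, an order seen in 4.11% of genes tested, and neither passed (log2 fold changes 0.45 ± 0.175 and 0.60 ± 0.191, edgeR adjusted p 0.93).

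**Figure D1:**
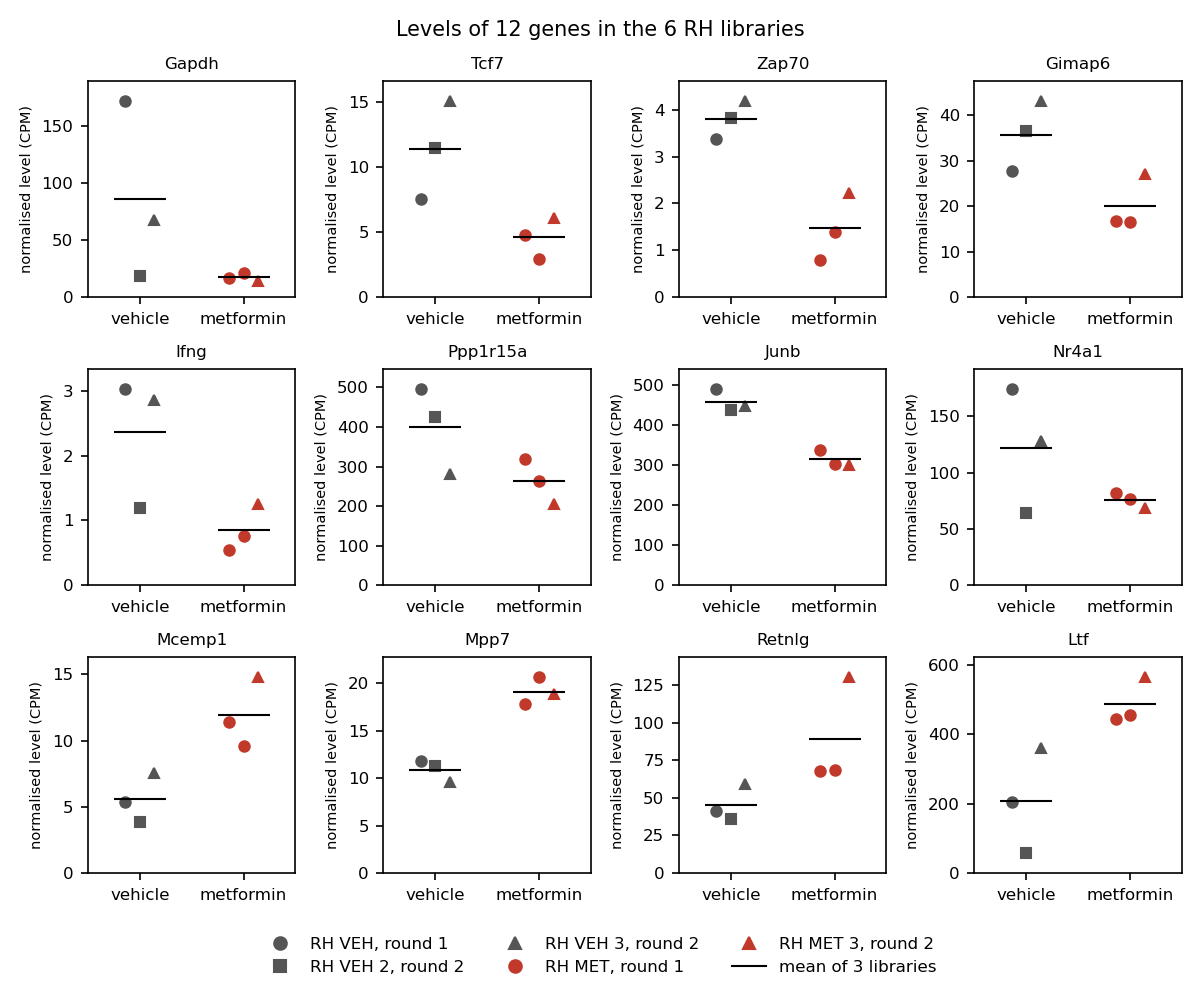
Levels of 12 genes in the 6 RH libraries, in TMM-normalised CPM on linear axes that start at 0, with 1 point per library and a bar at the mean of the 3 libraries of a group. Gapdh is high in RH VEH 1 and RH VEH 3 only, Tcf7, Zap70, Gimap6 and Junb are lower in all 3 metformin libraries, and Mcemp1, Mpp7, Retnlg and Ltf are higher in all 3.

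Genes of the respiratory chain, the target system of metformin, stood lower on the median but not in every pairing of libraries. Of 36 nuclear-encoded complex I subunits, 33 were lower with all libraries, against 50.7% of all genes tested, and 35 without RH VEH 2, against 50.8%. The median log2 fold change was −0.38 and −0.27 in these fits, where the median of all genes tested was −0.01 and 0.00. The summed level of the subunits was 3696, 3505 and 2079 CPM in RH VEH 1, 2 and 3 and 2563, 2554 and 2333 CPM in RH MET 1, 2 and 3. The metformin libraries were close together, and the vehicle libraries lay on both sides of them. Within round 1 all 36 subunits were lower, against 50.1% of genes tested (median −0.57). In round 2, RH MET 3 was lower than RH VEH 3 for 5 of 36, against 46.7% (median 0.16), and lower than RH VEH 2 for 31 of 36, against 50.2% (median −0.48). No subunit passed the threshold, 2 were lower at an unadjusted p under 0.05 with all libraries, against 1.52% of genes tested, and 0 without RH VEH 2, against 1.05%.

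Single subunits varied in how far they followed this order of libraries. Ndufv2, an iron-sulfur subunit of the NADH-oxidising module, stood at 190, 205 and 118 CPM under vehicle and at 123, 122 and 133 under metformin. RH VEH 3 held the lowest value of all 6 libraries. Ndufs1, the largest core subunit, stood at 180, 163 and 149 CPM against 188, 169 and 166, with a log2 fold change of 0.00 ± 0.122.

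Complexes II to V had the same pattern as complex I, with 35 of 39 tested subunits lower, a median of −0.32 with all libraries and −0.18 without RH VEH 2, and 0.15 for RH MET 3 against RH VEH 3. Uqcrb, a subunit of complex III, stood at 92.2, 74.2 and 58.8 CPM under vehicle and at 57.4, 53 and 56.7 under metformin. It was the lone member of this list with all metformin libraries below all vehicle libraries, an order seen in 2.81% of genes tested (log2 fold change −0.45 ± 0.191, not called). Cox7c of complex IV stood at 267, 287 and 121 CPM against 165, 155 and 137, with overlapping groups. Transcripts of the mitochondrial genome rested on RH VEH 2: mt-Nd1, a complex I subunit, stood at 4924, 85585 and 2449 CPM under vehicle and at 2799, 3110 and 3255 under metformin. The median of 12 tested mitochondrial-genome genes was −2.41 with all libraries, −0.36 without RH VEH 2 and 0.41 for RH MET 3 against RH VEH 3.

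Translation genes had the same shape. Of 58 cytosolic ribosomal protein genes, 57 were lower with all libraries, with a median of −0.33, or −0.19 without RH VEH 2. Within round 1 all 58 were lower, whereas RH MET 3 was higher than RH VEH 3 for 57. Rpl18, a protein of the large subunit, stood at 1628, 1566 and 828 CPM under vehicle and at 948, 1013 and 922 under metformin. The 42 tested mitochondrial ribosomal protein genes had a median of −0.28 with all libraries, −0.11 without RH VEH 2 and 0.17 for RH MET 3 against RH VEH 3. For 34 proteasome genes these were −0.18, −0.12 and 0.11. S phase and replication genes were lower for 32 of 35 (median −0.17), or 31 of 35 without RH VEH 2 (−0.13), and E2f1, a transcription factor that drives entry into S phase, stood at 153, 156 and 110 CPM against 111, 116 and 100. No gene of these lists passed, and RH VEH 3 was the vehicle library nearest to the metformin libraries in each example.

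**Figure D2:**
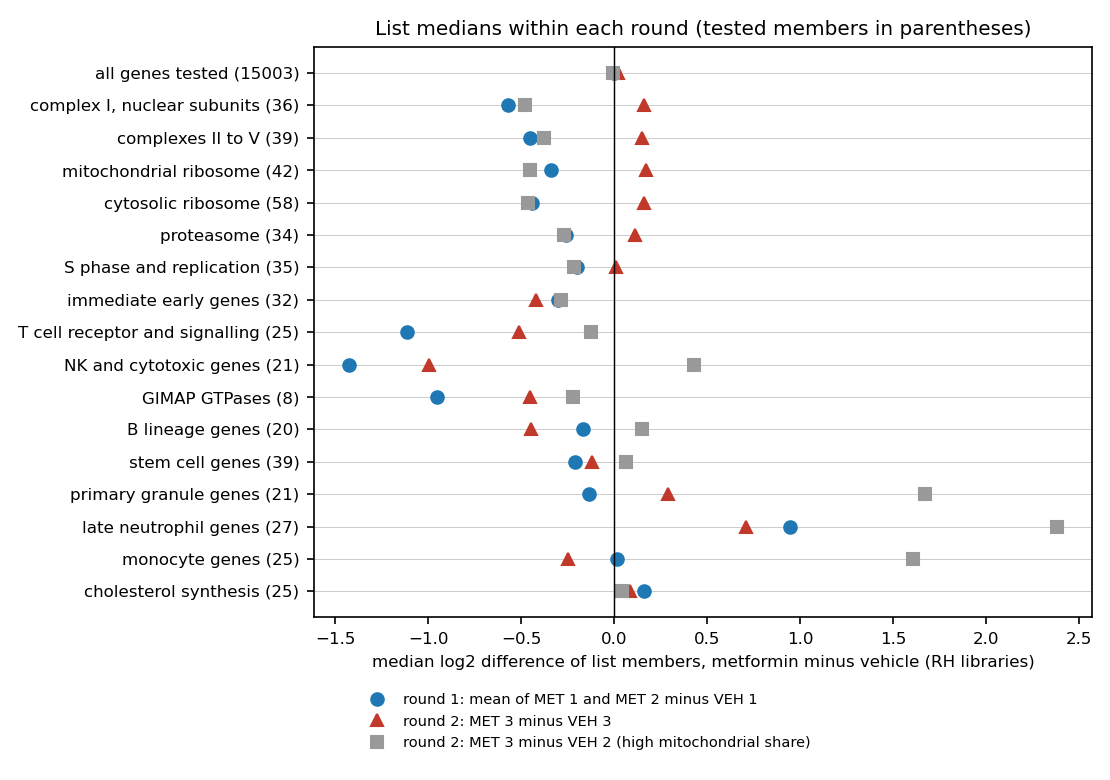
Median log2 difference between metformin and vehicle over the tested members of each list, on the horizontal axis, for 3 pairings of RH libraries within a round. Respiratory chain, ribosome and proteasome medians are below 0 against RH VEH 1 and RH VEH 2 and above 0 against RH VEH 3, while immediate early, T cell receptor and GIMAP medians are below 0 and the late neutrophil median is above 0 in all 3 pairings.

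The sensing and stress pathways linked to complex I inhibition showed medians near 0. Of 33 tested genes of AMPK, mTOR and their inputs, 13 were lower and the median was 0.05, both with all libraries and without RH VEH 2, and no member was at an unadjusted p under 0.05 with all libraries. Prkaa1, a catalytic AMPK subunit, stood at 86.8, 83.8 and 82.7 CPM under vehicle and at 102, 94.6 and 85.8 under metformin. Mtor stood at 44, 41.6 and 61.5 CPM against 65, 64 and 55.1, and Rptor, its partner in complex 1, at 45.1, 36.7 and 52.3 against 61.2, 61.7 and 48.3. For both genes RH MET 1 and RH MET 2 were above all vehicle libraries, while RH MET 3 was below RH VEH 3. The ATF4 stress response list had a median of 0.05 over 34 genes in both fits, and Atf4, the transcription factor of mitochondrial stress, stood at 579, 548 and 338 CPM against 443, 409 and 330.

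The 4 tested genes of metformin uptake had a median of 0.16 with all libraries and 0.02 without RH VEH 2. Slc22a3, an organic cation transporter that carries metformin, stood at 32.4, 48.3 and 49.6 CPM under vehicle and at 27.9, 26.8 and 39 under metformin, with overlapping groups. The methionine and one-carbon list had a median of 0.05 over 24 genes with all libraries and 0.07 without RH VEH 2. The DNA methylation machinery had 0.04 and −0.03 over 20 genes, of which 8 and then 12 were lower. Cholesterol synthesis genes were higher for 18 of 25 (median 0.10 with all libraries, 0.12 without RH VEH 2), and Sqle, squalene epoxidase, stood at 46.1, 34.3 and 42.9 CPM against 57.7, 57.1 and 48.7. In this list 4 of 25 genes had all metformin libraries above all vehicle libraries, against 4.11% of genes tested.

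Late neutrophil genes, which encode proteins of secondary and tertiary granules and of mature neutrophils, were higher for all 27 tested members, against 49.3% of genes tested. The median log2 fold change was 1.16 with all libraries and 0.85 without RH VEH 2, against −0.01 and 0.00 over all genes tested. Their summed level was 1905, 842.6 and 3440 CPM in RH VEH 1, 2 and 3 and 3841, 3881 and 5854 CPM in RH MET 1, 2 and 3. Every metformin library was above every vehicle library, with RH VEH 3 not far below RH MET 1. In 25 of 27 genes the difference was positive in all 3 within-round pairings, against 13.8% of genes tested, and in 13 of 27 the groups did not overlap, against 4.11%. Without RH VEH 2 this count was also 13, against 7.69%. At an unadjusted p under 0.05, 5 were higher with all libraries, against 0.906%, and 3 without RH VEH 2, against 0.843%, and none passed the adjusted threshold.

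The promoters of several of these genes are shown because members of the list stood higher together. They hold the letters TTGCNNAA, a core of the sites that C/EBP factors recognise in granulocytes, on one strand or the other. Capitals mark the match, and each stretch is upstream of the gene's start, 5′ to 3′ on the gene's strand, from RefSeq on GRCm38.p6 (Ltf chr9:111019193-111019248, plus strand, Ngp chr9:110419646-110419701, plus strand, Lcn2 chr2:32387924-32387979, minus strand, Retnlg chr16:48872358-48872393, plus strand).
Ltf: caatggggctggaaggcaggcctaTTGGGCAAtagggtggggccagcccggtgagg
Ngp: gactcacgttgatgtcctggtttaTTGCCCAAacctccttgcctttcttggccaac
Lcn2: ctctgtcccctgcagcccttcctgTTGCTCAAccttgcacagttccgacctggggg
Retnlg: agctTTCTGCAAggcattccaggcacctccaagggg
Within 250 bases before the start, 9 of 25 matched genes of the list held these letters in any promoter, against 9.56% of 32851 single promoters. A gene can have several promoters, which can raise the share of genes, so these shares are in unlike units. The T cell receptor list, whose members stood lower, held them in 4 of 11 genes. The motifs were picked with the expression results known, and a match is a description of letters only.

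Among the genes with these stretches, Ltf, the granule protein lactoferrin (ENSMUSG00000032496), stood at 205, 58.1 and 361 CPM under vehicle and at 445, 455 and 565 under metformin. Its log2 fold change was 1.34 ± 0.713 with all libraries and 0.92 ± 0.585 without RH VEH 2. Retnlg, a resistin-like protein of neutrophils, stood at 41.3, 35.8 and 59.5 CPM against 67.8, 68.5 and 130. Both had all metformin libraries above all vehicle libraries and did not pass. Mcemp1, a membrane protein of mast cells and granulocytes, stood at 5.38, 3.82 and 7.53 CPM against 11.4, 9.6 and 14.8 (1.21 ± 0.336, and 0.98 ± 0.315 without RH VEH 2). S100a8, a subunit of calprotectin, stood at 265, 151 and 415 CPM against 536, 581 and 819, and Fcnb, a ficolin of myeloid precursors, at 10.7, 2.27 and 17.1 against 20.7, 23 and 27.9. In each of these genes RH VEH 2 was lowest and RH VEH 3 the highest of the vehicle libraries.

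Medians of earlier granulocyte genes and of monocyte genes depended on RH VEH 2. Of 21 tested primary granule genes, 20 were higher with all libraries (median 0.24) and 10 without RH VEH 2 (−0.01). Elane, neutrophil elastase, stood at 348, 144 and 374 CPM under vehicle and at 252, 358 and 493 under metformin, and Mpo, myeloperoxidase, at 1450, 574 and 1770 against 1104, 1580 and 1676. RH VEH 2 was lowest for both, and the other libraries overlapped. Of 25 monocyte genes, 20 were higher with all libraries (median 0.21) and 8 without RH VEH 2 (−0.16). Cebpe, the C/EBP factor of late granulocyte maturation, stood at 11.5, 5.86 and 14.5 CPM against 12.4, 17.3 and 22. Itgam, which encodes CD11b of myeloid cells, stood at 15, 2.63 and 15.6 CPM against 18.7, 18.3 and 25. The groups overlapped for Cebpe, while all metformin libraries were above all vehicle libraries for Itgam, an order seen in 4.11% of genes tested. Leaving out 1 library, the log2 fold change of Itgam ran from 0.48 to 1.49. Ly6g, the neutrophil marker that the sort should remove, stood at 4.56, 2.03 and 8.36 CPM against 8.78, 7.34 and 14. The 10 markers of sorted-away lineages summed to 398 to 438 CPM under vehicle and to 315 to 491 under metformin, and none was at 0 in any RH library. The part of such cells in the result was not tested.

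**Figure D3:**
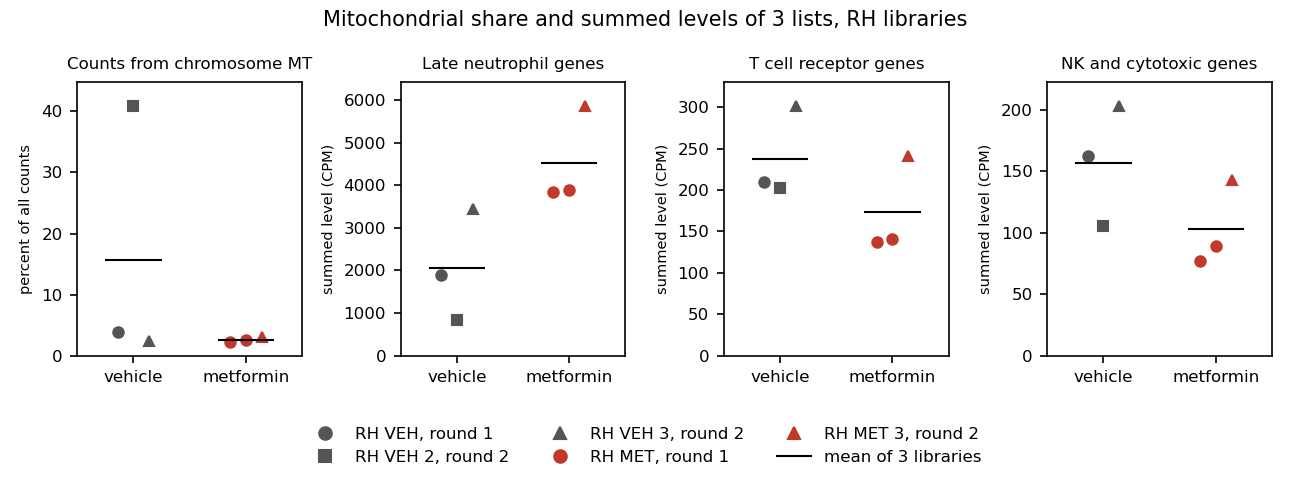
Share of counts from the mitochondrial chromosome (percent) and summed TMM-normalised level (CPM) of 3 gene lists in each RH library, on axes that start at 0, with a bar at the mean of 3 libraries. The late neutrophil sum is between 842.6 and 3440 CPM under vehicle and between 3841 and 5854 under metformin, while the sums of T cell receptor and of natural killer genes overlap between the groups.

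Genes of T cells and natural killer (NK) cells stood lower. Of 25 tested genes of the T cell receptor and its signalling, 23 were lower, with a median of −0.88 with all libraries and −1.01 without RH VEH 2. All 21 tested NK and cytotoxic genes were lower with all libraries and 20 without RH VEH 2 (−0.98 and −1.25), as were all 8 GIMAP GTPases in both fits, which support survival of lymphocytes (−0.74 and −0.79). The summed level of the T cell receptor list was 210, 202 and 301 CPM in RH VEH 1, 2 and 3 and 137, 141 and 241 in RH MET 1, 2 and 3. That of the NK list was 163, 105 and 203 CPM against 76.8, 89 and 143. Both sums overlapped between the groups, since RH MET 3 was above RH VEH 1 and RH VEH 2 for the first and above RH VEH 2 for the second. The NK list had a positive median, 0.43, for RH MET 3 against RH VEH 2, and negative medians, −1.42 and −0.997, in the other pairings.

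Counts of single genes read in the same way. At an unadjusted p under 0.05, 7 of 25 T cell receptor genes, 8 of 21 NK genes and 5 of 8 GIMAP genes were lower, against 1.52% of genes tested. Without RH VEH 2 these were 11, 16 and 4, against 1.05%. Non-overlapping groups with metformin lower were found in 7, 2 and 4 genes, against 2.81% of genes tested, and without RH VEH 2 in 13, 16 and 4, against 5.62%. No member passed the adjusted threshold in either fit.

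T cell genes of smallest p included transcription factors and receptor components. The list of T lineage transcription factors as a whole was mixed. Of 14 tested, 8 were lower and 6 higher with all libraries (median −0.13), and 11 and 3 without RH VEH 2 (−0.29). Its median for RH MET 3 against RH VEH 2 was positive, 0.67. In 2 of 14 the groups did not overlap with metformin lower, against 2.81% of genes tested. Tcf7, a transcription factor of T cells and early lymphoid progenitors (ENSMUSG00000000782), stood at 7.54, 11.5 and 15.1 CPM under vehicle and at 4.81, 2.91 and 6.08 under metformin. Bcl11b, which fixes the T lineage, stood at 1.23, 4.06 and 2.75 CPM against 0.347, 0.27 and 1.05, the latter from 7, 5 and 26 counts. Both had all metformin libraries below all vehicle libraries, with log2 fold changes of −1.15 ± 0.284 and −1.95 ± 0.499. Zap70, the kinase next to the receptor, stood at 3.38, 3.82 and 4.18 CPM against 0.793, 1.4 and 2.21. Trac and Trbc1 encode constant regions of the receptor, and stood at 3.59, 3.11 and 2.8 CPM against 0.446, 0.539 and 1.93, and at 3.33, 6.93 and 4.72 against 1.24, 1.4 and 2.54. Cd2, an adhesion receptor of T and NK cells, stood at 4.05, 4.78 and 5.31 CPM against 1.54, 0.755 and 2.62. The groups did not overlap for any of the 6 genes above, whereas they did for Cd3e, with 3.08, 1.19 and 2.36 CPM against 0.645, 0.378 and 2.21.

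NK genes separated mainly once RH VEH 2 was set aside. Eomes, a T-box factor of NK and memory T cells, stood at 3.13, 0.597 and 6.69 CPM under vehicle and at 0.694, 1.24 and 1.49 under metformin. Il2rb, a receptor chain for interleukin 2 and 15, stood at 24.4, 15.2 and 41.2 CPM against 7.14, 8.25 and 20.6, and Klrb1c, the NK1.1 antigen, at 4.87, 2.63 and 6.59 against 2.08, 1.67 and 3.14. Ms4a4b, a membrane protein of T and NK cells outside the list, stood at 8.41, 4.18 and 14.8 CPM against 4.02, 3.72 and 8.41. Its groups overlapped also without RH VEH 2, since RH VEH 1 (8.409 CPM) was just below RH MET 3 (8.412 CPM). RH VEH 2 was the lowest vehicle library for all 4 and lay within or below the range of the metformin libraries. Ifng, the cytokine interferon gamma, stood at 3.03, 1.19 and 2.85 CPM, from 59, 10 and 58 counts, against 0.545, 0.755 and 1.25. Klrk1, an activating NK receptor, stood at 7.08, 6.81 and 12.9 CPM against 3.52, 4.1 and 6.12, and Xcl1, a chemokine, at 7.13, 2.99 and 5.56 against 1.19, 2.27 and 2.7. The last 2 genes had all metformin libraries lower, and their log2 fold changes were −0.86 ± 0.286 and −1.37 ± 0.448.

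GIMAP genes are expressed in many lymphoid cells and lie in one cluster on chromosome 6. Gimap6 stood at 27.7, 36.4 and 43.1 CPM under vehicle and at 16.8, 16.5 and 27.1 under metformin. Gimap3 stood at 12.4, 12.4 and 17.8 CPM against 4.61, 4.59 and 12.2, and Gimap5 at 5.23, 6.93 and 4.33 against 2.28, 1.67 and 4.07. RH MET 3 was the highest metformin library in all 3 genes and stayed just below the lowest vehicle library. The summed level of the whole GIMAP list was 79.68, 102.3 and 112.2 CPM in RH VEH 1, 2 and 3. It was 41.75, 42.88 and 83.52 CPM in RH MET 1, 2 and 3. These sums overlapped between the groups, since RH MET 3 was above RH VEH 1. B lineage genes had a smaller median, −0.15 over 20 genes with all libraries and −0.34 without RH VEH 2, and none was at an unadjusted p under 0.05 in either fit. Mature T and NK cells should be few among the sorted cells, and their part in these levels was not tested.

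Immediate early genes, which encode transcription factors and regulators induced within minutes of a stimulus, were lower in 27 of 32. Their median was −0.34 with all libraries, −0.44 without RH VEH 2, and −0.30, −0.42 and −0.29 in the 3 within-round pairings. Their direction thus held in both rounds, unlike that of the respiratory chain. Their summed level was 10750, 10850 and 9577 CPM in RH VEH 1, 2 and 3 and 8578, 8613 and 7632 CPM in RH MET 1, 2 and 3. The list's score is the mean over members of log2 CPM, each centred on its mean in the 6 RH libraries. These scores overlapped, at 0.38, −0.041 and 0.051 under vehicle and 0.040, −0.044 and −0.38 under metformin. In 16 of 32 the difference was negative in all 3 pairings, against 10.7% of genes tested, and 5 had non-overlapping groups, against 2.81%. At an unadjusted p under 0.05, 5 were lower with all libraries, against 1.52% of genes tested, and 6 without RH VEH 2, against 1.05%.

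Junb, an AP-1 subunit, stood at 491, 439 and 448 CPM under vehicle and at 339, 304 and 301 under metformin. All metformin libraries were below all vehicle libraries, with a log2 fold change of −0.57 ± 0.16 that moved to −0.59 ± 0.175 without RH VEH 2. Ier2 stood at 514, 519 and 342 CPM against 314, 314 and 305, and Egr1, a zinc-finger factor, at 763, 644 and 478 against 495, 436 and 315. Nr4a1, an orphan nuclear receptor that restrains stem cell proliferation (ENSMUSG00000023034, chromosome 15, 101254269 to 101274795, mm10), stood at 174, 63.8 and 128 CPM against 81.7, 76.6 and 68.9. RH VEH 2 alone among the vehicle libraries was below the metformin libraries, and the log2 fold change was −0.80 ± 0.258 with it and −1.05 ± 0.189 without it (adjusted p 0.74, edgeR). Nfkbia, an inhibitor of NF-kB that is induced by it, stood at 321, 235 and 207 CPM against 285, 204 and 115. Ppp1r15a, a stress-induced phosphatase subunit, stood at 496, 425 and 282 CPM against 318, 264 and 205. The NF-kB and TNF list as a whole had a median of 0.03 over 29 genes with all libraries and −0.07 without RH VEH 2, with 14 and then 19 lower.

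Promoters of immediate early genes are shown because TGACGT, the core of the cAMP response element, is a known feature of the family. Capitals mark the match, extended where the neighbouring letters match on the other strand, with positions from RefSeq on GRCm38.p6 (Ppp1r15a chr7:45526269-45526304, Btg2 chr1:134079292-134079345, Dusp1 chr17:26508634-26508687, all on the minus strand).
Ppp1r15a: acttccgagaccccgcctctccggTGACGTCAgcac
Btg2: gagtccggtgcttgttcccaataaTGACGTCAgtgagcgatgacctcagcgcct
Dusp1: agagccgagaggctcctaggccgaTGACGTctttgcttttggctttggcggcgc
On either strand, 11 of 27 matched genes of the list held the letters in any promoter. So did 11 of 43 genes of the cytosolic ribosome list. The letters were found in 6.47% of 32851 single promoters, a unit unlike genes, which can have several promoters. Of the 3 genes shown, Ppp1r15a had a log2 fold change of −0.77 ± 0.202, Btg2 of −0.15 ± 0.129 and Dusp1 of 0.03 ± 0.134. Also searched were TGANTCA, the AP-1 element, found in 1 of 27 of the list and in 6.75% of all promoters, and the CArG box of serum response factor, found in 3 of 27 and in 1.47%.

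Other genes of small p that stood higher included Mpp7, a polarity scaffold protein, at 11.8, 11.2 and 9.64 CPM under vehicle and at 17.9, 20.7 and 18.8 under metformin. Its log2 fold change was 0.80 ± 0.21 with all libraries and 0.82 ± 0.232 without RH VEH 2, the same size in both. Acod1, which makes itaconate in activated myeloid cells, stood at 4.2, 2.87 and 3.98 CPM against 14, 9.33 and 6.28. Il6, a cytokine, stood at 13.1, 11.9 and 9.4 CPM against 25.3, 16.5 and 21.2. Gda, guanine deaminase, stood at 63.5, 46.4 and 69.8 CPM against 117, 104 and 92.7, and Dnah8, a dynein heavy chain, at 28.5, 21.4 and 30.3 against 59.6, 38.8 and 39.9. Adgrg7, an adhesion receptor, stood at 9.64, 12.8 and 21 CPM against 30.1, 31.4 and 26.3, and Sept5, a septin, at 1.38, 0.239 and 1.57 against 2.78, 2.27 and 3.94. All 7 had every metformin library above every vehicle library, an order seen in 4.11% of genes tested, and none passed. They were picked for small p in this direction, which favours genes with this order. Xlr4a, an X-linked lymphocyte-regulated gene, was lower, at 17.6, 17.1 and 9.1 CPM against 8.23, 7.01 and 8.05. So was Ablim1, an actin-binding protein, at 10.2, 8.36 and 14.8 CPM against 3.17, 4.85 and 8.77, with RH VEH 2 just below RH MET 3.

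Some genes led one fit and not the other. Sfrp4, a secreted inhibitor of Wnt signalling, stood at 7.08, 12.8 and 2.66 CPM under vehicle and at 13.8, 10.8 and 4.71 under metformin. Its log2 fold change was 0.81 ± 0.223 without RH VEH 2 and −0.09 ± 0.5 with it. Erfe, erythroferrone, stood at 12.5, 5.97 and 2.61 CPM against 35, 22.5 and 5.15, and Podxl, podocalyxin, at 20.9, 3.7 and 2.21 against 121, 61.3 and 2.54. Both were higher in the round 1 libraries than in the round 2 libraries under either treatment. Gdf3, a growth factor of the TGF-beta family, stood at 44.8, 44.8 and 17.3 CPM against 58.2, 50.4 and 44, with RH VEH 3 the lowest library. Dsc2, a desmosomal cadherin, stood at 0.0513, 2.03 and 0.344 CPM against 2.73, 0.647 and 0.604, from 1, 17 and 7 counts against 55, 12 and 15. Slc15a2, a peptide transporter, led neither fit and is given as part of a fixed set of genes. It stood at 8.25, 4.3 and 16.7 CPM against 3.82, 6.74 and 12.9, with overlapping groups.

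**Figure D4:**
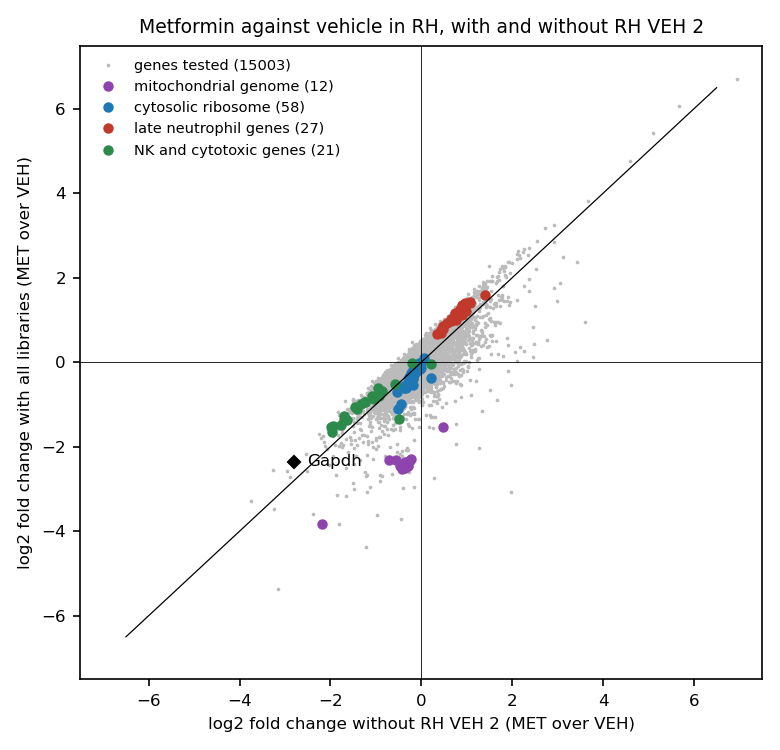
Log2 fold change of metformin over vehicle in RH with all 12 libraries in the fit (vertical) and without RH VEH 2 (horizontal) for the 15003 genes tested, with 4 lists and Gapdh marked and a line at equal values. Mitochondrial-genome genes lie far below the line, late neutrophil genes lie above 0 and most NK genes below 0 in both fits.

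Stem cell genes had a median of −0.18 over 39 genes with all libraries and −0.13 without RH VEH 2. Their summed level was 1666 to 1877 CPM under vehicle and 1457 to 1526 under metformin, so the sums did not overlap. The sum includes Egr1, at 763, 644 and 478 CPM under vehicle and at 495, 436 and 315 under metformin. The list's scores overlapped, since RH MET 3 (0.074) was above RH VEH 2 (0.057). Procr, the surface marker EPCR of stem cells, stood at 2.26, 1.43 and 1.52 CPM under vehicle and at 0.446, 0.863 and 1.33 under metformin, with the groups apart and RH MET 3 near the vehicle libraries. Hlf, a transcription factor of stem cells, stood at 11.5, 8.01 and 11.7 CPM against 8.08, 9.55 and 8.65, and Ly6a, which encodes Sca-1, at 6.61, 8.01 and 7.72 against 4.71, 4.32 and 8.94. The groups overlapped for both. Pf4, platelet factor 4, stood at 210, 444 and 174 CPM against 175, 171 and 200, with RH VEH 2 highest.

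Medians of several lists had the opposite sign in wild-type cells, which have their own libraries. Whether RH and WT libraries share animals is not stated. In WT, all 27 late neutrophil genes were lower under metformin (median −0.56), and 55 of 58 cytosolic ribosome genes were higher (0.23). Of 36 complex I subunits 31 were higher (0.27), and the T cell receptor median was 0.30. These medians include WT MET 2, which drew 33.3% of its counts from the mitochondrial chromosome. Without RH VEH 2 and WT MET 2, 20 of 27 late neutrophil genes were lower in WT (−0.17), 55 of 58 ribosome genes and 28 of 36 complex I subunits were higher (0.18 and 0.15), and the T cell receptor median was 0.02. B lineage genes had medians below 0 in both genotypes, −0.40 in WT without these libraries. The difference between the effects in RH and WT had a median of 1.63 for late neutrophil genes, −1.02 for T cell receptor genes and −0.65 for complex I subunits, or 1.04, −0.91 and −0.45 without these 2 libraries. Tested gene by gene, no difference passed with all libraries (edgeR interaction contrast, 932 genes at an unadjusted p under 0.05, 3.77% lower and 2.45% higher). Without both libraries Gapdh passed, with a difference of −3.06 on the log2 scale (edgeR adjusted p 0.013).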

How the data were processed

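Raw read counts per gene for 12 libraries were deposited by the authors, as whole numbers without normalization. STAR 2.5, HTSeq 0.6.1 and mm10 are named per the submitters' processing notes; strand and multi-mapping settings are not given in the sources used here. Total counts in RH libraries ran from 13359583 to 21938003, and 1 CPM stood for 8.37 reads in RH VEH 2 and 18.5 to 24.8 in the others. Library numbers are those of the larger table's columns, and some differ from the labels' numbers. A smaller table repeated 6 columns; 2 of its columns matched no sample and were not used.

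Counts were fitted with edgeR 4.0.16 in R 4.3.3 (TMM, filterByExpr, robust quasi-likelihood, group means plus a round term, all 12 libraries), with a Benjamini-Hochberg adjusted p under 0.05 as the threshold. SE is the standard error of the log2 fold change, with 3 libraries per group. Levels are TMM-normalised CPM, and within-round differences use log2 CPM with a prior count of 2. Each list's median and counts are over its tested members, and 43 lists were used. The comparison, the lists and the genes were chosen with earlier results of these data known. Named genes were, per direction and fit, those past the threshold or, to fill 10, of smallest p with mean log2 CPM of at least 1 and the same sign in both rounds. The 4 members of smallest p per list and a fixed set of defining genes completed them, some of which are not reported here; Btg2, Dusp1, Ngp and Lcn2 were added for their promoters after values were seen. Promoter letters were searched on both strands, with promoters on chromosome 18 left out. The fit was tested on simulated data with less spread between libraries than seen here and with no library of high mitochondrial share. That test therefore does not cover these features of the data. Alternatives were RLE factors, no filter, DESeq2 1.42.0, limma 3.58.1 voom with quality weights, fewer libraries, other terms and leaving out each library.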

Additional observations from a re-analysis of the deposited data

Results flagged for a closer look

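The effect of metformin on Gapdh differed between RH and WT when both libraries of high mitochondrial share were left out (−3.06 on the log2 scale, edgeR interaction contrast, adjusted p 0.013). With all libraries the difference was −2.92 ± 0.762 and did not pass. In 2 further genes every RH metformin library was below every RH vehicle library and every WT metformin library above every WT vehicle library. These were Xlr4a, with a difference of −1.62 ± 0.41 between the effects, and Klrk1, with −1.34 ± 0.41. Neither difference passed the adjusted threshold with all libraries. Only genes named here were searched for this opposite order, many of them chosen for small p in RH. Its share over all genes was not counted, and the RH part alone was seen in 2.81% of genes tested. Groups of 3 libraries are too small for a check of single outlying libraries.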

How the results depend on the processing

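The number of genes called depended on the method. With all libraries it was 0, and 229 with no low-count filter, 30 with DESeq2 (of which 0 were among the 15003 genes kept by the filter), 1700 with limma voom and sample quality weights, 3 in round 1 alone and 1 without both libraries of high mitochondrial share. Without RH VEH 2 it was 1, and 110 with no filter, 31 with DESeq2, 1 with quality weights, 3 in round 1 alone and 0 in round 2 alone. For the difference between RH and WT it was 0, and 431, 2, 1946, 3 and 1 in the same order as first given. Of the calls with no filter, 220, 109 and 412 in these 3 comparisons were among the genes that the filter kept. Of the DESeq2 calls 0, 5 and 0 were. Leaving out 1 library gave 0 to 1 calls, 0 to 2 calls and 0 to 1 calls in these 3 comparisons; without RH VEH 3 the genes at an unadjusted p under 0.05 with all libraries numbered 2000 in place of 364, and without RH MET 3 the call of Gapdh was lost. The weights were 0.361 for RH VEH 2 and 0.339 for RH VEH 3, against 2.93 for RH VEH 1. With the column number as a replicate block there were 0, 1 and 0 calls; same-numbered RH libraries correlated at 0.096, 0.104 and 0.334, and RH MET 1 did so best with another number while RH MET 2 and 3 did so with their own; with 1 value under 0.1 the numbers were not taken as a pairing. The cause of these differences was not tested.

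Medians of the complex I, cytosolic ribosome, T cell receptor, NK, late neutrophil and immediate early lists moved by less than 1 pooled SD of the list's score in every alternative run. That SD is wide where vehicle libraries lie apart, so a median could shrink much and stay within it. Leaving out 1 library, these medians ran from −0.53 to −0.26, −0.47 to −0.19, −1.16 to −0.59, −1.33 to −0.75, 0.85 to 1.5 and −0.44 to −0.23. Signs changed for genes of small or uneven difference. Sfrp4 was 0.73 with quality weights, 0.077 in RH libraries only, 0.41 with no round term, 0.80 in round 1, 0.45 with the replicate block, 0.82 without both libraries and −0.60 to 0.81 leaving out 1 library. Dsc2 was −0.85 in round 2 and −0.33 to 2.47 leaving out 1 library. Podxl was −0.18, Cd3e 0.30, Ly6a 0.21, Slc15a2 0.29, Kit −0.000199 and Dusp1 −0.0462 in round 2. In round 1 Elane was −0.19, Mpo −0.11, Ndufs1 −0.017 and Cd34 −0.027. Without both libraries Mpo was −0.077, Kit −0.032 and Cd34 −0.13. With quality weights Elane was −0.000914 and Dusp1 −0.0046. With no round term Cd34 was −0.044 and Dusp1 −0.059. Dusp1 was −0.016 in RH libraries only and −0.064 with the replicate block. Leaving out 1 library, Mpo ran from −0.10 to 0.53, Ndufs1 from −0.088 to 0.069, Kit from −0.045 to 0.19, Cd34 from −0.16 to 0.46, Ly6a from −0.34 to 0.10, Hlf from −0.37 to 0.033, Slc15a2 from −0.54 to 0.23 and Dusp1 from −0.068 to 0.14. Depth limits genes near 1 CPM, which stood for 8.37 reads in RH VEH 2.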
